A study of Homo sapiens with 4 samples.

Results

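The chromatin at 10 gluconeogenesis genes was examined in MHCC97L cells, a cell line of human hepatocellular carcinoma that was untreated and is labelled as wild type and of liver origin. The genes were PC, PCK1, PCK2, FBP1, FBP2, G6PC1, G6PC3, TAT, PPARGC1A and FOXO1, taken by name from the 19974 protein-coding genes on chromosomes 1 to 22 and X. Each gene was taken with 50000 bp on each side. Chromatin immunoprecipitation and sequencing had been carried out for 3 histone modifications, with 1 library each: trimethylation of histone H3 at lysine 4 (H3K4me3), acetylation at lysine 27 (H3K27ac) and monomethylation at lysine 4 (H3K4me1), and the other library of the 4 samples was input chromatin, not analysed here. The files hold the summit position of every peak with a score, the −log10 of a p-value or q-value, so read depth is unknown and levels of different marks cannot be compared by score. There are no replicates, and every value below describes these libraries without a test. In bulk chromatin, a mark on few cells cannot be told apart from a weak mark on all of them.

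Gluconeogenesis is the route by which the liver makes glucose from lactate, amino acids and glycerol during fasting. It runs back along glycolysis except at the irreversible steps, which have their own enzymes: pyruvate carboxylase (PC) and phosphoenolpyruvate carboxykinase (PCK1 in the cytosol, PCK2 in mitochondria) bypass pyruvate kinase, fructose bisphosphatase (FBP1 in liver, FBP2 in muscle) bypasses phosphofructokinase, and the glucose phosphatase of the endoplasmic reticulum (G6PC1 in liver and kidney, G6PC3 in most tissues) releases free glucose. TAT encodes tyrosine aminotransferase, which feeds an amino acid into the pathway, and PPARGC1A and FOXO1 encode a coactivator and an insulin-controlled transcription factor that switch the pathway on. H3K4me3 marks promoters, H3K27ac marks active promoters and enhancers, and H3K4me1 marks enhancers and the flanks of promoters.

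The sequences before 7 transcription starts show the range of promoters among these genes, and were chosen because some of these starts carried H3K4me3 and others did not. They are the 250 bases before each start, 5′ to 3′ on the strand of the gene, from RefSeq on GRCh38.p14, which has the chromosome coordinates of the hg38 build of the files. Capitals mark CpG dinucleotides. The starts of G6PC3, FBP1, PPARGC1A (outer) and PC (innermost) had an H3K4me3 summit within 1000 bp, and the others, which follow them, had none of the marks that near.
G6PC3, first listed start (chr17:44070423-44070672, plus strand): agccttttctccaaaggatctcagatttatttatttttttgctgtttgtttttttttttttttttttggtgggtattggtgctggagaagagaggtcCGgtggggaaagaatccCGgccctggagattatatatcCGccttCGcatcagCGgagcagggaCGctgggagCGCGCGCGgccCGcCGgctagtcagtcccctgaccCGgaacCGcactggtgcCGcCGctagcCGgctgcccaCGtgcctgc
FBP1 (chr9:94639519-94639768, minus strand): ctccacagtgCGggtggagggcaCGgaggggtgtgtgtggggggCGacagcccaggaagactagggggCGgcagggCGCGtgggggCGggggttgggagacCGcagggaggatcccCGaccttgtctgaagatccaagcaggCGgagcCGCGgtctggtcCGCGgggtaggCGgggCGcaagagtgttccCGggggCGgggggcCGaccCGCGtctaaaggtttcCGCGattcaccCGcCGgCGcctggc
PPARGC1A, outer start (chr4:24472906-24473155, minus strand): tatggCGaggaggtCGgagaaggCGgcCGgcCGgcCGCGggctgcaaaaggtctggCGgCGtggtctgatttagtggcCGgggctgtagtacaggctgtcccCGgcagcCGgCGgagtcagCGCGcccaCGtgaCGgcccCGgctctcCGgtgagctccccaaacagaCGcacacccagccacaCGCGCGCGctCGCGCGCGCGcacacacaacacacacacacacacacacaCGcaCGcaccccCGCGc
PC, innermost start (chr11:66906035-66906284, minus strand): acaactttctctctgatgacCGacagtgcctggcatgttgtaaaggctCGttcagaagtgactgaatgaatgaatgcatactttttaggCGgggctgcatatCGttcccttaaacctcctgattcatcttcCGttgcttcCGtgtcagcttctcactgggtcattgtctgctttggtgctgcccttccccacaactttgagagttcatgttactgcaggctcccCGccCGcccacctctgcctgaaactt
PPARGC1A, inner start (chr4:23881102-23881351, minus strand): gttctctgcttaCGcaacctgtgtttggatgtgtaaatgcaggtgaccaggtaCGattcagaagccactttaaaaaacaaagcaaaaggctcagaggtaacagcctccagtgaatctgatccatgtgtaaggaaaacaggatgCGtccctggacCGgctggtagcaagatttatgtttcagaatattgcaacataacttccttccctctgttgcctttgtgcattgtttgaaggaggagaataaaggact
G6PC1 (chr17:42900549-42900798, plus strand): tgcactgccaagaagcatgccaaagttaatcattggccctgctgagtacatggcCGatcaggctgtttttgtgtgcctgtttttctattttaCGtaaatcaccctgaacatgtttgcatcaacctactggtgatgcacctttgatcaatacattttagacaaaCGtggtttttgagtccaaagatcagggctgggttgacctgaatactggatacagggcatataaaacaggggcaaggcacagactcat
FBP2 (chr9:94593825-94594074, minus strand): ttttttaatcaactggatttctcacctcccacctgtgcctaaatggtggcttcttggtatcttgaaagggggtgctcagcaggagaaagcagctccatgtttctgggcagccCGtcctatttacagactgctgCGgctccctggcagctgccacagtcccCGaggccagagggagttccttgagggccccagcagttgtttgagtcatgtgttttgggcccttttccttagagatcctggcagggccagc

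Of the 10 genes, 7 had an H3K4me3 summit within 1000 bp of a boundary of the gene, against 56.8% of all protein-coding genes. An H3K27ac summit lay as near in 5, against 54.1% of protein-coding genes. H3K4me3 and H3K27ac stood at the same boundary in those same 5, PC, PCK2, G6PC3, TAT and FOXO1, against 47.4%. H3K4me1 lay at a boundary of 2, G6PC3 and TAT, against 12.4%. With 10 genes these counts are close to the background. PCK1, G6PC1 and FBP2 carried none of the marks between points 1000 bp outside their ends, as did 25.7% of protein-coding genes. FBP1 and PPARGC1A had H3K4me3 with no H3K27ac beside it. At a boundary, 5 of 7 best H3K4me3 scores and 3 of 5 best H3K27ac scores were below the median of marked protein-coding genes. A median divides the marked genes evenly, and with so few genes these counts are near an even split. The best H3K4me3 score had a median of 31.0 over the 7 genes, from 22.8 to 76.2, against 52.1 over the 11344 protein-coding genes with the mark at a boundary. The best H3K27ac score had a median of 11.9 over the 5 genes, from 4.51 to 75.5, against 30.1 over 10810 genes.

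A boundary is either end of a gene, so a mark there need not be at a promoter. The start table gave 13 starts for 8 of the genes, so those could be examined at their starts alone. H3K4me3 lay within 1000 bp of a start of 6 of these 8 genes, against 62% of the 15812 protein-coding genes with a start in that table. H3K27ac did so in 4, against 57.6%, and H3K4me3 with H3K27ac at the same start in the same 4, PC, PCK2, G6PC3 and FOXO1, against 53.1%. H3K4me3 at a start, with no H3K27ac at any listed start of the gene, was seen in 2 genes, FBP1 and PPARGC1A, against 8.62%. The innermost start of PC also had H3K4me3 without H3K27ac within 1000 bp, but PC had H3K27ac at its outer start.

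**Figure D1:**
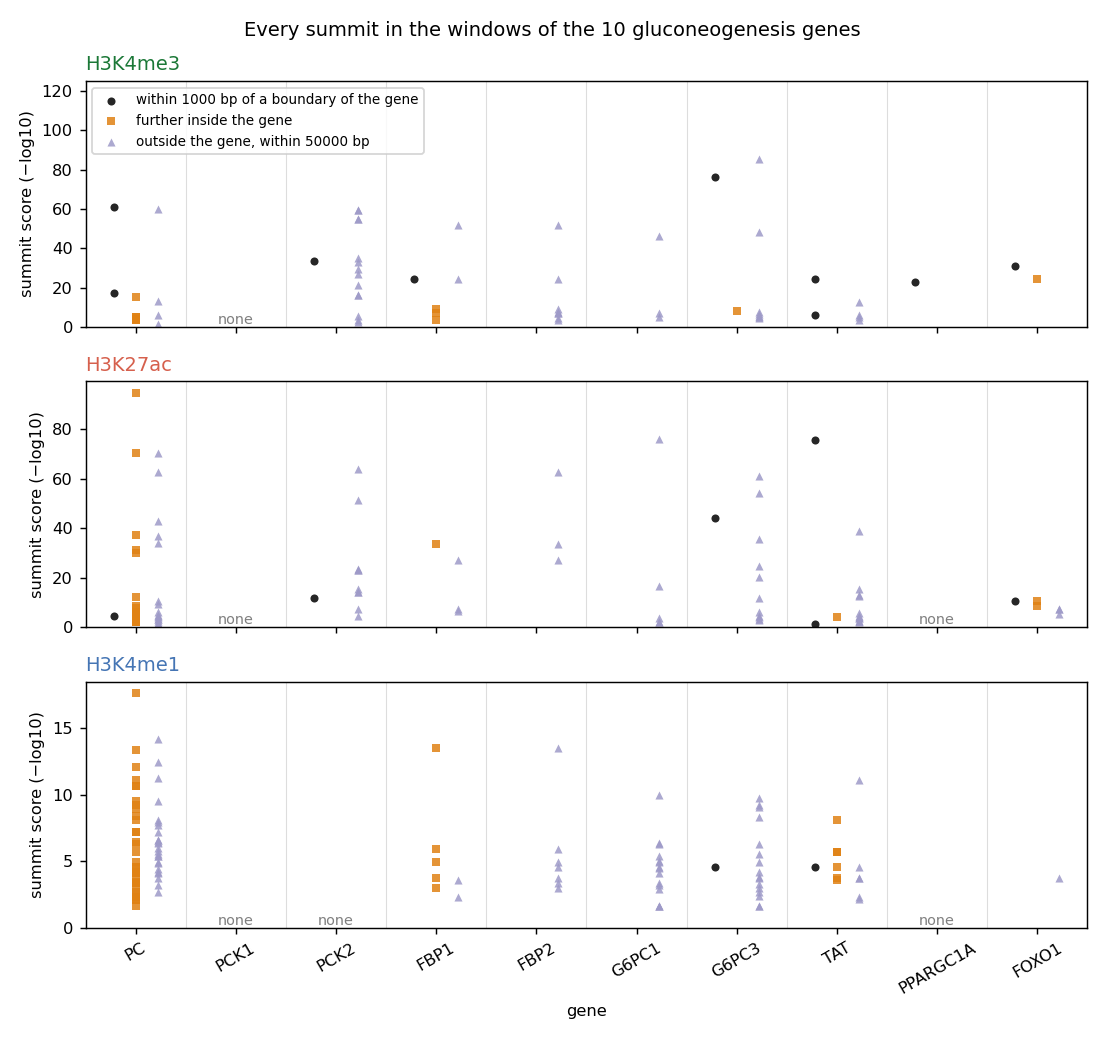
Score of every summit (−log10, vertical axis, 1 panel per mark) in the window of each gene, split into summits within 1000 bp of a boundary of the gene, further inside it, and outside it within 50000 bp. PC has summits of all 3 marks both inside the gene and outside it, whereas PCK1 has none and PPARGC1A has a lone H3K4me3 summit with a score of 22.8.

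PC, the gene of the enzyme that makes oxaloacetate from pyruvate, had the densest H3K27ac and H3K4me1 of the 10. It lies at chr11:66848420-66958383 on the minus strand. Its window held 39 H3K27ac, 58 H3K4me1 and 13 H3K4me3 summits, which was 41.9%, 51.3% and 22.4% of the summits of each mark found in all the windows. Per 100 kb of window there were 18.6 H3K27ac and 27.6 H3K4me1 summits, more than in 97.5% and 98.3% of the windows of protein-coding genes. H3K4me3 was less exceptional in number, at 6.19 per 100 kb and above 77.5% of windows.

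At the outer start of PC, H3K4me3 had a summit 106 bp into the gene with a score of 60.8, above 60.8% of the genes with the mark at a start. A further H3K4me3 summit lay 609 bp before the start, with a score of 17.5. The only H3K27ac summit within 1000 bp was weak, with a score of 4.51 at 592 bp before the start, while the next one, with a score of 31.2, lay 1100 bp into the gene and so just beyond the limit. Acetylation near this promoter was therefore stronger just outside the limit than inside it. PC has 2 inner starts in the table, 50430 and 52349 bp inside the outer one. The innermost had an H3K4me3 summit 269 bp before it with a score of 15.1, and an H3K27ac summit with a score of 70.5 that lay 1479 bp downstream of it. The other inner start had an H3K4me1 summit 358 bp before it, with a score of 10.6, and no H3K4me3 or H3K27ac within 1000 bp.

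The highest H3K27ac score in any of the windows lay inside PC, 71421 bp from its outer boundary, at chr11:66886962. Its score of 94.5 was above 98.7% of the H3K27ac list. A weak H3K4me3 summit, with a score of 5.30, lay 34 bp from it, and the nearest H3K4me1 summit was 1050 bp away with a score of 7.21. The strongest H3K4me1 summit of all the windows lay in the same stretch, 77401 bp from the outer boundary, with a score of 17.7 that was above 99.3% of its list. Upstream of PC were 4 H3K27ac summits with scores of at least 30, between 13040 and 26044 bp before the outer start. They scored 62.8, 33.9, 42.9 and 37.0, and each had H3K4me1 within 1000 bp. C11orf86, a protein-coding gene, lies among these sites. At the other end of the window were the highest flanking H3K27ac and H3K4me3 scores, 70.2 and 60.02, at 1 bp from each other. Both lay near boundaries of RCE1, which encodes a protease that trims prenylated proteins, and TOP6BL, a meiotic recombination gene. LRFN4, a synaptic adhesion gene, lies inside PC. Of the summits inside PC, 3 of H3K27ac with scores of up to 12.2 and 1 of H3K4me3 with a score of 3.98 lay within 1000 bp of a boundary of LRFN4, and an H3K27ac summit with a score of 37.3 lay 1014 bp from one.

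**Figure D2:**
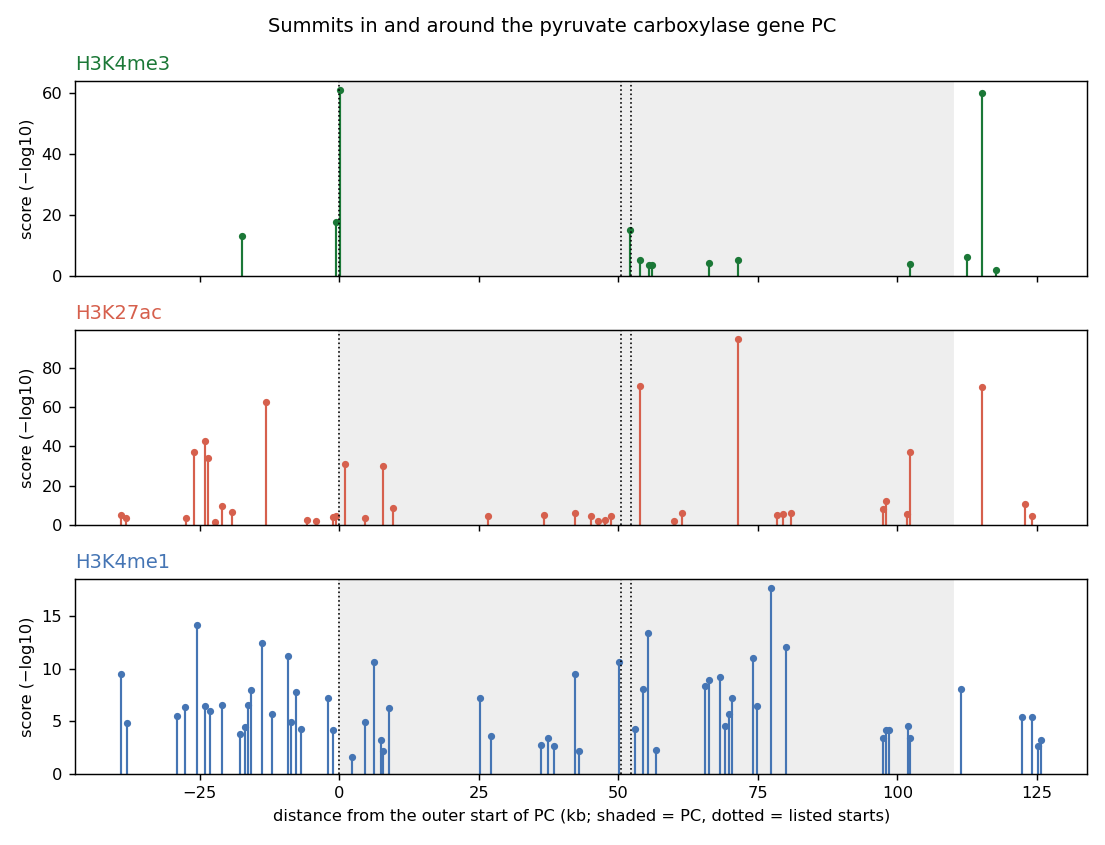
Summits in the window of PC by distance from its outer start (horizontal axis, kb, in the direction of transcription) and score (vertical axis, −log10), with the gene shaded and its listed starts dotted. H3K4me3 peaks at the outer start (60.8) and again at RCE1 and TOP6BL (60.02), while the highest H3K27ac summit (94.5) lies deep inside the gene.

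The carboxykinase genes differed from each other. PCK1, the cytosolic form at chr20:57561110-57568121, had no summit of any mark in its window of 107012 bp, as was the case for 9.54% of protein-coding genes. The nearest summits lay 65909 bp from the gene for H3K4me3, 125455 bp for H3K4me1 and 130740 bp for H3K27ac. As great a distance was found for 10.9%, 17.4% and 7.65% of protein-coding genes. PCK2, the mitochondrial form at chr14:24094171-24104125 on the plus strand, had H3K4me3 and H3K27ac 354 and 397 bp into the gene from its start. Their scores were 33.5 and 11.9, above 23.7% and 15.0% of the genes with that mark at a start. It had no H3K4me1 summit in its window, and the nearest lay 57340 bp from the gene.

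Most of the other marks around PCK2 lay at neighbouring genes. Its window held 11 H3K27ac and 15 H3K4me3 summits, and no H3K27ac summit lay over 2500 bp from every gene boundary. The highest H3K27ac score, 63.9, lay at a boundary shared by NRL, a retinal transcription factor gene whose span includes PCK2, and DCAF11, which encodes a ubiquitin ligase adaptor. The highest H3K4me3 score, 59.7, occurred in 2 summits near the neighbouring boundaries of PSME2, a proteasome activator gene, and RNF31, a ubiquitin ligase gene. H3K4me3 density in this window, 13.6 per 100 kb, was above 96.2% of protein-coding genes.

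The bisphosphatase genes are neighbours on chromosome 9, and their windows overlap, sharing 2 H3K27ac, 5 H3K4me1 and 5 H3K4me3 summits. FBP1, the liver enzyme gene at chr9:94603133-94640263 on the minus strand, had an H3K4me3 summit 97 bp into the gene from its start, with a score of 24.2 that was above 15.9% of the genes marked there. The summit was 842 bp from the gene's outer boundary, so this gene lay just inside the 1000 bp limit. No H3K27ac summit accompanied it, and the nearest lay 29755 bp upstream with a score of 6.51. No H3K4me1 summit lay closer to the start than 7883 bp. Inside FBP1 and 30468 bp downstream of its start was a site with all 3 marks. Its H3K27ac score was 33.6, above 84.5% of that list, with H3K4me3 of 9.40 at 22 bp and H3K4me1 of 13.5 at 462 bp. The H3K4me1 score there was above 97.7% of its list. This site lies 15226 bp upstream of the start of FBP2 as well, so it is near both genes.

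FBP2, the muscle enzyme gene at chr9:94558720-94593824 on the minus strand, had no summit inside it or within 1000 bp. The nearest H3K4me3 summit was 3978 bp beyond its downstream end, with a score of 51.8 and H3K27ac of 27.3 beside it, and lay at the boundaries of the lncRNA genes PCAT7 and LOC124902218. A further H3K27ac summit with a score of 62.6 lay 25012 bp beyond that end, with H3K4me3 of 4.76 at 76 bp from it.

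The glucose phosphatase genes differed like the carboxykinase genes in the marks at the gene itself, but both had all 3 marks elsewhere in the window. The window of G6PC1 held 5 H3K27ac, 15 H3K4me1 and 3 H3K4me3 summits, and that of G6PC3 held 12, 17 and 9. G6PC1, the liver and kidney form at chr17:42900799-42914438 on the plus strand, had no summit in the gene or within 1000 bp, and the nearest of any mark was an H3K4me1 summit at 3965 bp. Away from the gene it did have strong acetylation. An H3K27ac summit with a score of 76.2, above 97.1% of the list, lay 14554 bp beyond its downstream end with H3K4me1 at 147 bp, and the nearest protein-coding gene boundary to it was that of G6PC1. Upstream, 4006 to 8847 bp before the start, were 4 H3K27ac summits, of which the highest scored 16.7. Around them were H3K4me1 summits with scores of up to 9.95, and H3K4me3 of 7.29 at 5995 bp before the start. These upstream sites lie inside the lncRNA gene LINC00671. The strongest H3K4me3 summit of the window, with a score of 46.4, lay 49835 bp from G6PC1, at a boundary of AARSD1, and so only just within the window.

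G6PC3, the widely expressed form at chr17:44070673-44076344 on the plus strand, had the highest H3K4me3 score at a start among the 8 genes with a listed start. The H3K4me3 score was 76.2, above 82.4% of genes with the mark at a start, and the H3K27ac score 44.2, above 68.3%. The summits lay 355 and 288 bp into the gene from the first of its 3 listed starts. An H3K4me1 summit with a score of 4.58 lay 690 bp before that start. G6PC3 shares its downstream boundary region with HDAC5, a histone deacetylase gene, but no summit lay there. All 8 H3K27ac summits of the window that were over 2500 bp from every gene boundary had H3K4me1 within 1000 bp. All of them lay inside HDAC5, with a highest score of 54.05. The highest scores of the window, H3K4me3 of 85.6 and H3K27ac of 61.05, lay 4271 and 4268 bp before the start of G6PC3 and inside LSM12, an RNA-binding protein gene. They were 1185 and 1182 bp from the nearest gene boundary, just outside the 1000 bp limit, and so counted at no boundary.

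**Figure D3:**
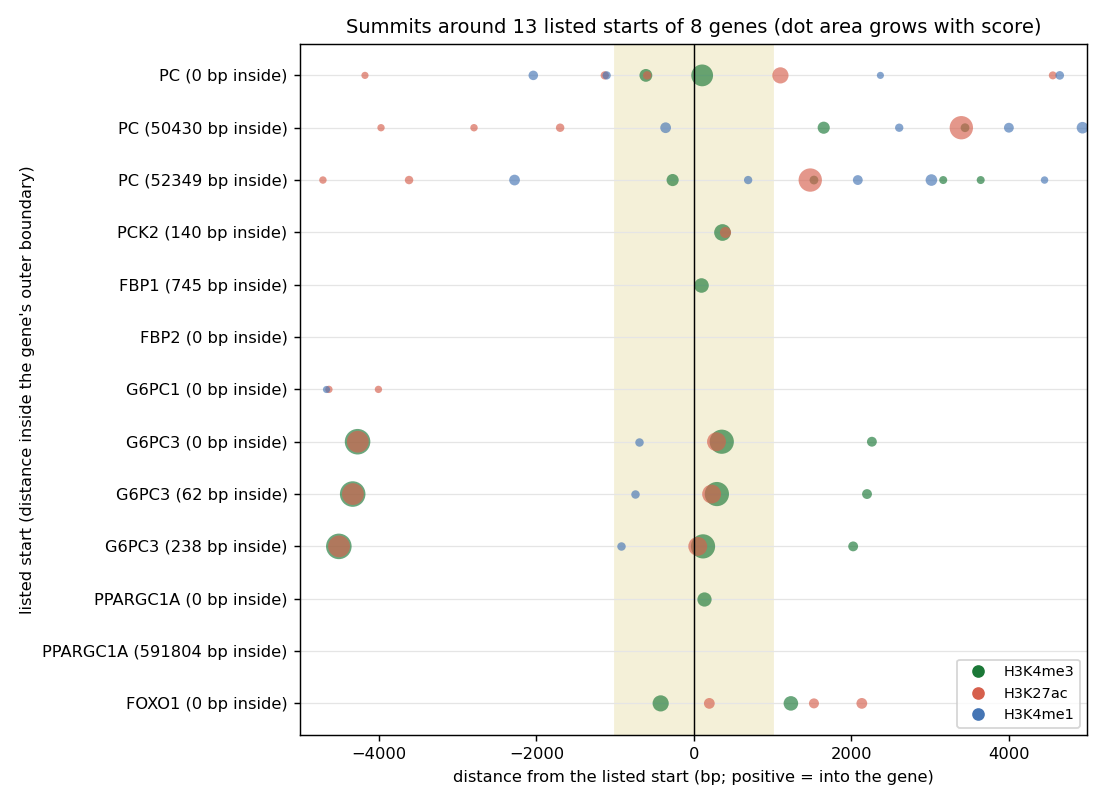
Summits around the listed starts of 8 genes, by distance from the start (horizontal axis, bp, positive into the gene), with colour for the mark, dot area for the score, and the 1000 bp limits shaded. G6PC3 and PCK2 have H3K4me3 and H3K27ac together just inside the gene, FBP1 and PPARGC1A have H3K4me3 alone, and FBP2 and G6PC1 have nothing within 1000 bp.

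TAT, which encodes the enzyme that breaks down tyrosine and is a classical glucocorticoid-induced liver gene, had the highest boundary acetylation of the 10. It lies at chr16:71565660-71577092. No start was listed for TAT, so neither end was taken as its promoter, and its boundary marks may not be at its start. At its lower-coordinate end was an H3K27ac summit with a score of 75.5, above 91.7% of the genes with that mark at a boundary. It lay 333 bp outside the gene, with H3K4me3 of 24.2 at 894 bp outside and weaker H3K4me3 of 6.28 at 911 bp inside. The lncRNA genes TAT-AS1 and LOC124903710 have boundaries within 1000 bp of these outer summits, and the marks cannot be assigned to TAT rather than to them. The higher-coordinate end had an H3K27ac score of 1.44 and no H3K4me3. Inside TAT were 7 H3K4me1 summits with scores of up to 8.11, in a stretch that the antisense gene TAT-AS1 partly overlaps. Beyond the higher-coordinate end a stretch of acetylation ran from 7665 to 31382 bp, with 12 H3K27ac summits. The strongest of these, with a score of 38.8, lay at a boundary of the lncRNA gene LOC105371334. H3K27ac density in the window was 13.5 per 100 kb, above 92.8% of protein-coding genes.

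Of the regulator genes, PPARGC1A, the coactivator gene, was the more sparsely marked. It spans 680885 bp at chr4:23792021-24472905 on the minus strand. Its window of 780885 bp held a lone summit, of H3K4me3, 130 bp into the gene from the outer start, with a score of 22.8 that was above 15.0% of the genes marked at a start. The nearest H3K27ac and H3K4me1 summits lay 111464 and 92800 bp from the gene. Of the 314 protein-coding genes of at least 500000 bp, 67 had at most 1 summit of the 3 marks in the window and 83 (26.4%) had no H3K27ac there, against a median of 12 summits. The inner start of PPARGC1A, 591804 bp inside the gene, had no summit of any mark closer than 249591 bp. The lncRNA gene LOC124900681 has a boundary within 1000 bp of the lone summit.

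FOXO1, at chr13:40555667-40666641 on the minus strand, had both promoter marks at modest scores. Its window held 2.84 H3K27ac summits per 100 kb, above 45.8% of protein-coding genes and near their median, and 0.948 of H3K4me3, above 23.2%. H3K4me3 had summits 421 bp before the start, with a score of 31.0, and 1233 bp into the gene, with a score of 24.2. Between them, 197 bp into the gene, was an H3K27ac summit with a score of 10.8, and 2 more lay 1526 and 2134 bp into the gene with scores of 8.58 and 10.8. The summit at 197 bp, the only one of these 3 within 1000 bp of the start, was above 13.2% of the genes with H3K27ac at a start. Within the whole H3K27ac list, the 3 were above 50.8% to 57.7% of summits. H3K4me1 had 1 summit in the window of 210975 bp, with a score of 3.77, beyond the downstream end of the gene and 23 bp from an H3K27ac summit of 5.52.

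Scores can take the same value at unrelated sites. The H3K4me3 score of 24.2 at FBP1, TAT and FOXO1 is 1 value that 328 summits of that list share, and it gives no order among those genes.

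Summit density differed widely between the windows. The median density over the 10 windows was 3.66 H3K27ac, 5.14 H3K4me1 and 4.88 H3K4me3 summits per 100 kb, against 3.30, 2.43 and 2.89 for all protein-coding genes. The H3K4me1 median is set by the overlapping windows of FBP1 (5.105) and FBP2 (5.181), which share 5 H3K4me1 summits, so it counts those summits in both. G6PC3 had 16.1 and G6PC1 had 13.2 H3K4me1 summits per 100 kb, above 91.6% and 87.5% of genes, whereas PCK1, PCK2 and PPARGC1A had none.

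**Figure D4:**
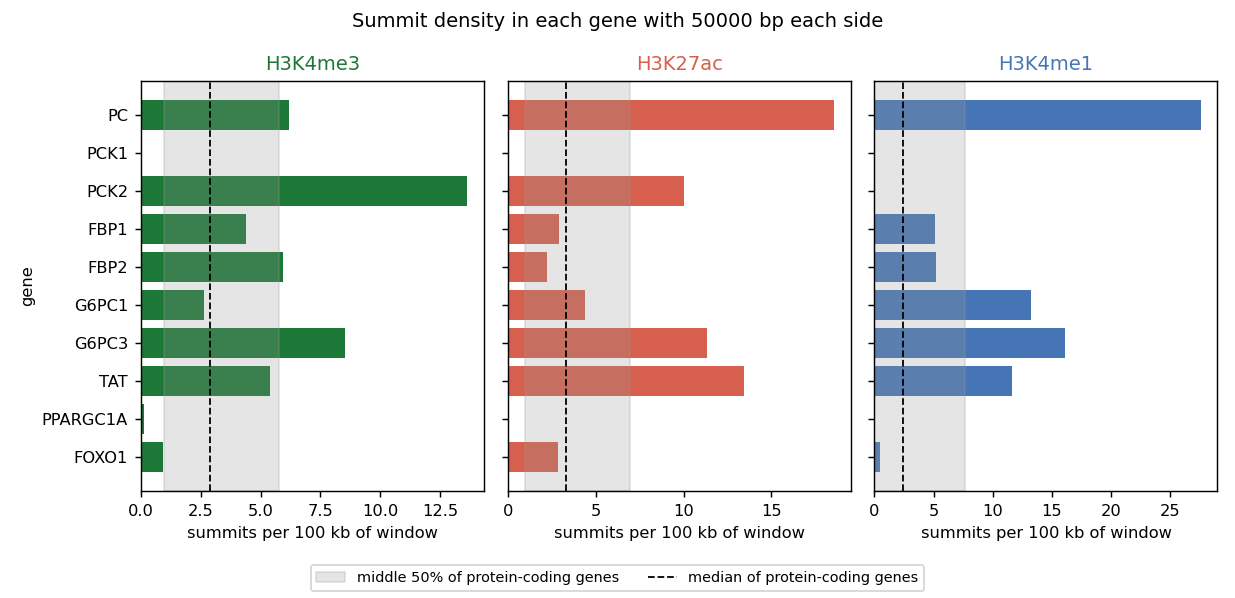
Summits per 100 kb of window (horizontal axis) for each gene and mark, with the middle 50% of protein-coding genes shaded and their median dashed. PC, G6PC3 and TAT exceed the shaded range for H3K27ac and H3K4me1, and PCK1 has no bar in any panel.

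Counting each summit of the overlapping windows only in 1 of them, 55 H3K27ac summits lay over 2500 bp from every gene boundary, and 36 of them (65.5%) had H3K4me1 within 1000 bp, against 65.9% of the 43996 such summits on the chromosomes analysed. PC held 16 of these sites, G6PC3 8, TAT 7, G6PC1 3, and FBP1 and FOXO1 1 each, with the FBP1 site also in the window of FBP2. The nearest protein-coding gene boundary was that of 1 of the 10 genes for 17 of the 36. All 3 sites of G6PC1 and all 7 of TAT were among those, but only 5 of the 16 of PC and none of the 8 of G6PC3. For the highest H3K27ac summit inside PC and the 4 high ones upstream of it, another protein-coding gene had the nearest boundary.

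The 13 starts of these genes differed in how many CpG dinucleotides preceded them, and those with H3K4me3 had more. G6PC1 and FBP2, with the unmarked promoters shown above, had 3 CpG each in the 250 bases before the start, and 13.8% of the 22132 starts in the table had fewer. The inner start of PPARGC1A and the middle start of PC had 4 each and no H3K4me3. The other 9 starts had 8 or more CpG, up to 33 at the outer start of PPARGC1A, and all of them had H3K4me3 within 1000 bp. Over the table, H3K4me3 lay within 1000 bp of 14.03% of the starts with 0 to 4 CpG, 33.8% of those with 5 to 9 and 79.6% of those with 25 to 59. The innermost start of PC, with 8 CpG, was the least CpG-rich of those marked. CpG count did not separate FBP1 and the outer start of PPARGC1A, with 26 and 33 CpG and no H3K27ac, from FOXO1, with 27 CpG and H3K27ac. The 3 starts of G6PC3 lie within 238 bp of each other and share their summits.

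**Figure D5:**
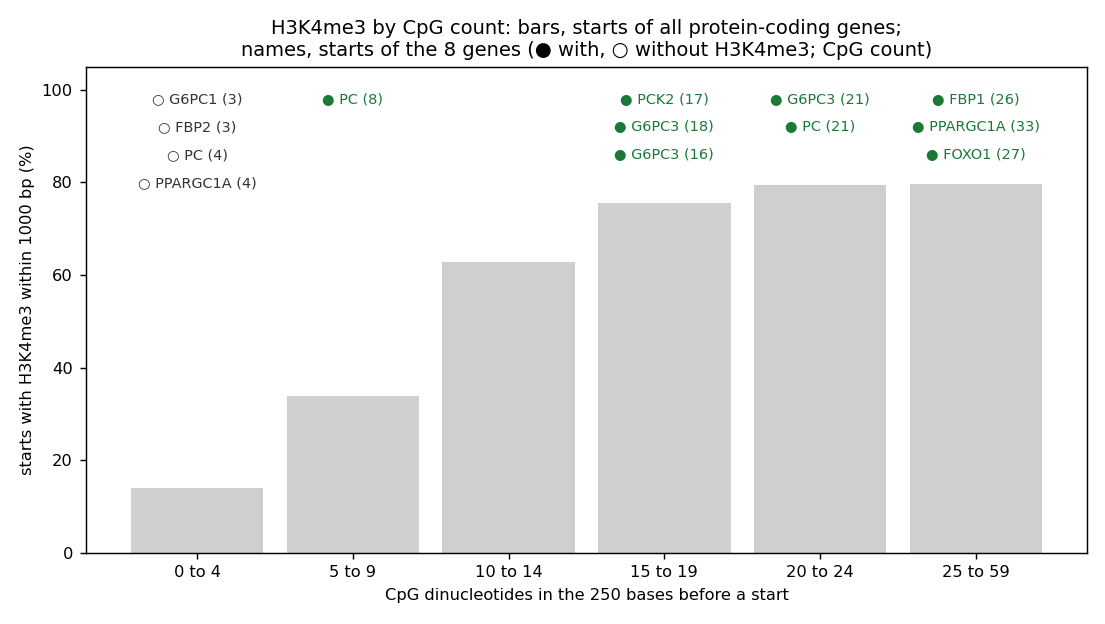
Percentage of the starts of protein-coding genes with an H3K4me3 summit within 1000 bp (bars) by the number of CpG in the 250 bases before the start (horizontal axis), with the 13 starts of the 8 genes named in their class and their CpG count in brackets; the height of a name carries no value. The 4 starts with 3 or 4 CpG are unmarked (open circles) and the 9 with 8 or more are marked (filled circles).

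The letters of response elements known from these genes were searched on both strands of the same 250 bases. TATAAA, the TATA box, was found at 1 of the 13 starts, 29 bases before that of G6PC1, and in 8.996% of all the promoters of the table. TGTTTTG, a core of insulin response sequences, was found 41 bases before the start of FBP2 and in 3.50% of promoters. TGACG, the core that cAMP-responsive factors bind, was found at 111, 160 and 186 bases before the outer start of PC and 119 bases before that of PPARGC1A, and in 24.1% of promoters. TGACGTCA, the full cAMP response element, which contains TGACG, was in 2.02% of promoters, and GTAAACA, a forkhead element, in 2.45%, and these letters were not in the 250 bases before any of the 13 starts. A match is a description of letters and not of binding. Only these exact letters were searched, so a start without a match may hold a variant spelling of an element.

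The rest of the pathway was examined through 48 further genes in 4 lists. H3K4me3 and H3K27ac stood at the same boundary in 36 of them (75%), against 47.4% of all protein-coding genes, and the counts of both marks in each list below are by this rule. Of the 8 genes of the reversible steps shared with glycolysis, 6 had both marks, and the highest H3K27ac scores were 112.8 at GAPDH and 101.6 at ALDOA, which encode a dehydrogenase and an aldolase. Of 15 genes of substrate entry and transport, 13 had both marks, with H3K27ac of 101.6 at GPD1, a glycerol phosphate dehydrogenase gene, and 87.3 at SLC25A11, a mitochondrial carrier gene. G6PC2, the pancreatic islet member of the glucose phosphatase family, had no summit there. GAPDH, ALDOA, GPD1 and SLC25A11 each have a boundary close to that of another gene (IFFO1, LOC112694756, COX14 and RNF167). These scores therefore cannot be assigned to them alone. The score of 112.8 was not within 1000 bp of a listed start of GAPDH, where the best H3K27ac score was 48.25. At ALDOA and SLC25A11 the best scores at a listed start were 101.6 and 87.3.

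Of 16 transcriptional regulators of the pathway, 11 had both marks, among them EP300, an acetyltransferase gene, with H3K27ac of 73.8. Each of the 16 had a summit in the gene or within 1000 bp. Of 9 genes of hormone signalling, 6 had both marks, with H3K27ac of 40.3 at IRS1 and 37.8 at AKT2, an adaptor and a kinase of the insulin pathway, with IRS1 close to a boundary of RHBDD1. GCGR, the glucagon receptor gene, had no summit in the gene or within 1000 bp. Of the 48 genes, 3 had no summit in the gene or within 1000 bp, against 25.7% of all protein-coding genes. G6PC2 and GCGR were among them, and PCK1, G6PC1 and FBP2 of the 10 genes also had none.

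The liver label was set beside marker genes. Of 10 hepatocyte-lineage genes, 4 had both promoter marks at the same boundary (40.0%), against 47.4% of all protein-coding genes. Among the 4 were HNF4A, a liver-enriched transcription factor gene, and the keratin genes KRT8 and KRT18, whose best boundary scores were the same (H3K27ac of 93.1 and H3K4me3 of 107.3), so they may not be separate sites. SERPINA1, APOA1 and AFP lacked the pair but had summits in the gene or within 1000 bp. ALB, APOB and TTR, which encode major secreted proteins of the hepatocyte, had none there. Markers of other cell types were not free of marks. Only 25.7% of protein-coding genes had no summit in the gene or within 1000 bp, however. The counts that follow were not adjusted for gene length. PECAM1, an endothelial gene, had H3K27ac of 43.9 and H3K4me1 of 6.84 at a boundary, and 14 H3K27ac, 24 H3K4me1 and 3 H3K4me3 summits in the gene or within 1000 bp. VWF, also endothelial, had 3 of H3K27ac and 13 of H3K4me1 there, and the leukocyte gene PTPRC had 6 and 7 of these and 1 of H3K4me3. CD68, a leukocyte gene, had both promoter marks at a boundary it shares with EIF4A1. Of the fibroblast genes, PDGFRB had 1 H3K27ac and 7 H3K4me1 summits, and COL1A1 and COL1A2 had none. Both promoter marks stood at the same boundary in 1 of 2 leukocyte, 0 of 2 endothelial and 0 of 3 fibroblast genes, beside 4 of 10 hepatocyte-lineage genes. Lists of so few genes cannot decide whether hepatocyte and other markers differ. They neither bear out the label nor go against it as a whole. The deposited lists hold 70028 summits of H3K27ac, 86366 of H3K4me1 and 46078 of H3K4me3.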

How the data were processed

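ChIP-seq of H3K27ac, H3K4me1 and H3K4me3 was made in MHCC97L cells with 1 library per mark. The submitters' processing notes name the hg38 build and the tools MACS2, Bowtie, deepTools and Picard. Their versions, settings and control were not given in the sources used here. For each mark the authors deposited the summit positions of the peaks with a score, which is the −log10 of a p-value or q-value (which of these is not given). A score rises with depth and falls with background, so it was ranked only within its list. Read depth is unknown.

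Genes and their outer limits came from RefSeq on GRCh38.p14, and starts and promoter bases from its promoter table, which lists 22132 starts of 15812 protein-coding genes and 8 of the 10 genes. Exons, introns and UTRs were not assigned here. A summit was at a boundary or start within 1000 bp, co-located within 1000 bp, and distal over 2500 bp from every gene boundary. Windows reached 50000 bp beyond the gene. Summits on chromosome Y and unplaced contigs were left out (273 of H3K27ac, 61 of H3K4me1, 185 of H3K4me3). With 1 library per mark no test was made, and counts were set beside the share of all protein-coding genes under the same rule. All 10 genes are named, with genes that share a boundary or hold the highest summit of a window. From each pathway list the 2 genes with the highest H3K27ac score at a boundary, and up to 2 with no mark, are named, except some that are not reported here; other neighbours were named after their values were seen. The genes and lists were chosen with earlier results of these data known. Boundary and co-location distances, window size, a score of at least 10, and starts in place of boundaries were the alternatives tried. The rules were tested on planted summits. Python 3.11.15, pandas 2.3.3, NumPy 2.4.6 and Matplotlib 3.10.9 were used.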

Additional observations from a re-analysis of the deposited data

How the results depend on the processing

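Of 34 alternative settings over 8 counts, 22 gave a count within 1.5 times the reported one and 12 did not. With a boundary limit of 500 bp, the genes with H3K27ac at a boundary numbered 3 in place of 5, those with H3K4me1 0 in place of 2, and those with H3K4me3 and H3K27ac together 2 in place of 5. H3K4me1 at a boundary was at 0 genes with a score of at least 10, and 4 genes had it anywhere in the gene or within 1000 bp. Distal H3K27ac with H3K4me1 numbered 23 sites with co-location within 500 bp and 4 where both scores reached 10, in place of 36. With a score of at least 10 the windows held 40 H3K27ac summits in place of 93, 11 H3K4me1 in place of 113 and 29 H3K4me3 in place of 58. H3K4me3 summits numbered 38 within 25000 bp and 94 within 100000 bp of the genes. A smaller limit or a higher score leaves fewer summits by construction. The number of genes with H3K4me3 at a boundary ranged from 5 to 7 under its alternatives. No paired analysis was possible because each mark has 1 library and no replicate numbers, and for the same reason no library could be left out. Depth was unknown, so a site without a summit may carry a mark below the authors' threshold.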
